A study of Mus musculus with 4 samples.

Results

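The genes described here are 10 heat shock chaperones and co-chaperones: Hspa1a, Hspa1b, Hspa8, Hspa4, Dnajb1, Bag3, Hspb1, Hsp90aa1, Hspd1 and Hspe1. They were taken by gene name from the array annotation and gave 18 probes, out of 28090 genes and 41174 probes in all. Their RNA was measured in the mouse prostate on 1-colour Agilent expression arrays. The study crossed 2 mouse lines with a gavage of olive oil or of TmT, a tocopherol mixture rich in gamma-tocopherol, a form of vitamin E. The 4 groups were C57BL/6 mice given oil, C57BL/6 mice given TmT at 600 mg/kg, TRAMP mice given oil and TRAMP mice given TmT at 600 mg/kg. All were males 8 weeks old, kept on a purified diet and fasted overnight before dosing, and the prostate was taken 12 hours after the gavage. In TRAMP mice the probasin promoter drives the SV40 early region in prostate epithelium, and these mice develop prostate tumours. The background strain of the TRAMP mice is not given in the labels used here, so the line and the transgene cannot be told apart. The labels give 3 mice per group and 1 array per group, and do not say whether an array held 1 mouse or a pool. No difference between arrays therefore had a replicate check, and none carries a p-value.

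Heat shock proteins bind unfolded proteins and help them fold, keep them soluble or pass them on for degradation. In an unstressed cell the transcription factor HSF1 is held inactive by chaperones. Heat, oxidants or damaged proteins free it, and it then binds heat shock elements, inverted repeats of the unit GAA, in the promoters of chaperone genes. Some chaperones, such as Hspa1a and Hspa1b, are made in large amounts mainly after such stress, whereas others, such as Hspa8 and Hspd1, are made in nearly every cell at all times.

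The promoters of the members are shown first, because they set the strongly inducible HSP70 pair apart as near copies and show where elements of the HSF1 type lie. Sequences are from RefSeq on GRCm38.p6, run 5′ to 3′ and stop at the base before the gene's start. Capitals mark matches to paired inverted units, searched on both strands as GAANNTTC and TTCNNGAA, which can overlap each other. Hspa1a (HSP70 of the cytosol) begins at chr17:34972156 on the minus strand, and Hspa1b, its near-identical neighbour, lies on the same strand with 10120 bases between the genes.
Hspa1a chr17:34972157-34972406: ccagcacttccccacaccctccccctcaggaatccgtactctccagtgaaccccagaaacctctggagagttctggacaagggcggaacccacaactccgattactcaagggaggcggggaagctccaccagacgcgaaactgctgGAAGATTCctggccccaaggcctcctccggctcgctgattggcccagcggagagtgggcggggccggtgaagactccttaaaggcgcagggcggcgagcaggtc
Hspa1b chr17:34959239-34959488: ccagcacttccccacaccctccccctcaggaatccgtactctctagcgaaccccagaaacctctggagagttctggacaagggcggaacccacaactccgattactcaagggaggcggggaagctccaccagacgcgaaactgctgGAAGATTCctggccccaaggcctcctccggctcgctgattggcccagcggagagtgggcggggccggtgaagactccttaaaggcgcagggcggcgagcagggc
Hspb1 chr5:135887669-135887918: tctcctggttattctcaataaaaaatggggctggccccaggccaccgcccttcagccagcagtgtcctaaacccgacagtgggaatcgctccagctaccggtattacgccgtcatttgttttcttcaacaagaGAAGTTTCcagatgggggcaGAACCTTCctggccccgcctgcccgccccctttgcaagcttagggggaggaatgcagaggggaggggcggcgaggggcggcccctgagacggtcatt
The stretches of Hspa1a and Hspa1b were equal at 247 of 250 bases, and both held GAAGATTC beginning at position -104 from the start. Hspb1, the gene of the small heat shock protein HSP27 (HSP25 in mice), held 2 matches, GAAGTTTC at position -117 and GAACCTTC at position -97. Hspd1 and Hspe1, which encode the mitochondrial chaperonin HSP60 and its lid HSP10, start on opposite strands and share a promoter. The stretch between the start of the shorter Hspd1 transcript and that of Hspe1, on the plus strand, was as follows.
Hspd1 and Hspe1 chr1:55087933-55088147: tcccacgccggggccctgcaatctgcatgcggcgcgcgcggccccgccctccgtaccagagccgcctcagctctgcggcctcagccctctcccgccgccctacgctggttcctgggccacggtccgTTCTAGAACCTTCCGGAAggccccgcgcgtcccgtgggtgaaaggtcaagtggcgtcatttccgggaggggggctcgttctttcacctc
Its capitals hold 3 overlapping pairs in a row, which also match the longer patterns GAANNTTCNNGAA and TTCNNGAANNTTC. Of the members, 8 had a promoter in the RefSeq table, and those of Hspa8 and Hsp90aa1 are named only. In windows from 250 bases before to 50 bases after the start, a paired unit occurred in 6 of the 10 promoters listed for these 8 genes and in 15.1% of all 32851 promoters. The 6 are not independent, since they include the near-copies Hspa1a and Hspa1b and the match that Hspd1 and Hspe1 share. The 3-unit pattern occurred in Hspd1 and Hspe1, which share the match, and in 0.603% of all promoters. Bag3 had its match, GAAGTTTC, at position 42 after the start, and no match was found in these windows for Dnajb1 and Hspa4. A match is a run of letters and not a measured binding site.

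All values below are log2 levels relative to the array's own 75th percentile of signal, so 0 is that percentile, and they are compared within a probe only. A gene is represented by its brightest probe unless another is named. Each ± is the scanner software's error of the spots and leaves out the difference between mice. Well above background on all 4 arrays were all 10 genes and 17 of their 18 probes. The share of spots above background was 63.9% to 74.1% per array, and the 75th percentile of signal ran from 71.3 on the TRAMP TmT array to 161 on the C57BL/6 oil array. The 4 arrays lay on 1 slide with 1 scan time, each at its own position. The prostate label was borne out by its markers. All 6 secretory markers, among them probasin (Pbsn) and Tgm4, were above background on all 4 arrays, with a summed linear level of 459 and 505 in C57BL/6 after oil and TmT and of 87.7 and 156 in TRAMP. In bulk tissue, fewer cells of a type and less RNA per cell cannot be told apart.

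The heat-inducible HSP70 genes had the largest range of the members, and their highest level was in C57BL/6 mice given oil. Hspa1a stood at 4.25 in C57BL/6 given oil, 2.00 in C57BL/6 given TmT, 0.50 in TRAMP given oil and 1.76 in TRAMP given TmT. The C57BL/6 oil array was thus the highest by 2.24, and the TRAMP oil array was the lowest. The next array down, C57BL/6 TmT, and TRAMP TmT lay 0.24 ± 0.20 apart, close to the spot error. The Hspa1a range of 3.75 over the 4 arrays was larger than that of 99.7% of the 16961 genes above background on all 4.

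Hspa1b stood at 0.12 on the C57BL/6 oil array, -2.45 on C57BL/6 TmT, -2.96 on TRAMP oil and -2.65 on TRAMP TmT. The first array was again far above the other arrays, which lay within 0.51 of each other. Before scaling, the probe's signal was 175 on the C57BL/6 oil array and 21.5, 17.8 and 11.4 on the others, in the same order. The low signals were marked well above background, but they limit how exactly the gap and the likeness of those arrays are known. The Hspa1b range of 3.08 exceeded that of 99.1% of genes.

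The probes of these 2 genes did not behave alike in every comparison. The brightest Hspa1a probe, A_52_P82741 (chr17:35106766-35106825 on mm9, minus strand), and the second, A_51_P117952 (chr17:35106796-35106855), overlap by 30 bases, which are shown because probes that share them differed in direction for TmT in TRAMP mice.
Bases shared by both Hspa1a probes: agggaaactaaactgtctttcagttacttt
The second Hspa1a probe read 1.93 in C57BL/6 after oil, -0.07 in C57BL/6 after TmT, -0.36 in TRAMP after oil and -0.66 in TRAMP after TmT. Both probes had the C57BL/6 oil array on top. In TRAMP mice, TmT minus oil was 1.26 ± 0.20 with the first Hspa1a probe and -0.30 ± 0.21 with the second, so the direction of Hspa1a in that comparison rests on the choice of probe. Without the scanner software's multiplicative detrending, a within-array correction that had left the TRAMP TmT array unchanged, these values were 1.60 and -0.48.

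The brighter Hspa1b probe, A_52_P52803 (chr17:35094200-35094259 on mm9, minus strand), is printed because its annotation lists transcripts of Hspa1a as well as of Hspa1b.
Hspa1b probe A_52_P52803: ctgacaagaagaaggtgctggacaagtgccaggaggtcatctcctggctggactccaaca
The signal under the name Hspa1b may therefore hold RNA of either gene, and the 2 genes are not independent readings. The dim Hspa1b probe, A_52_P304902, lists both genes too. It read -3.83 and -4.18 on the oil arrays of C57BL/6 and TRAMP and was not well above background on either TmT array, where it measured -4.34 and -4.35. For TmT in C57BL/6 its difference was -0.51 ± 0.42, or 1.43-fold lower, taken at its own signal. That value is no lower bound, since the TmT reading was not well above background.

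**Figure D1:**
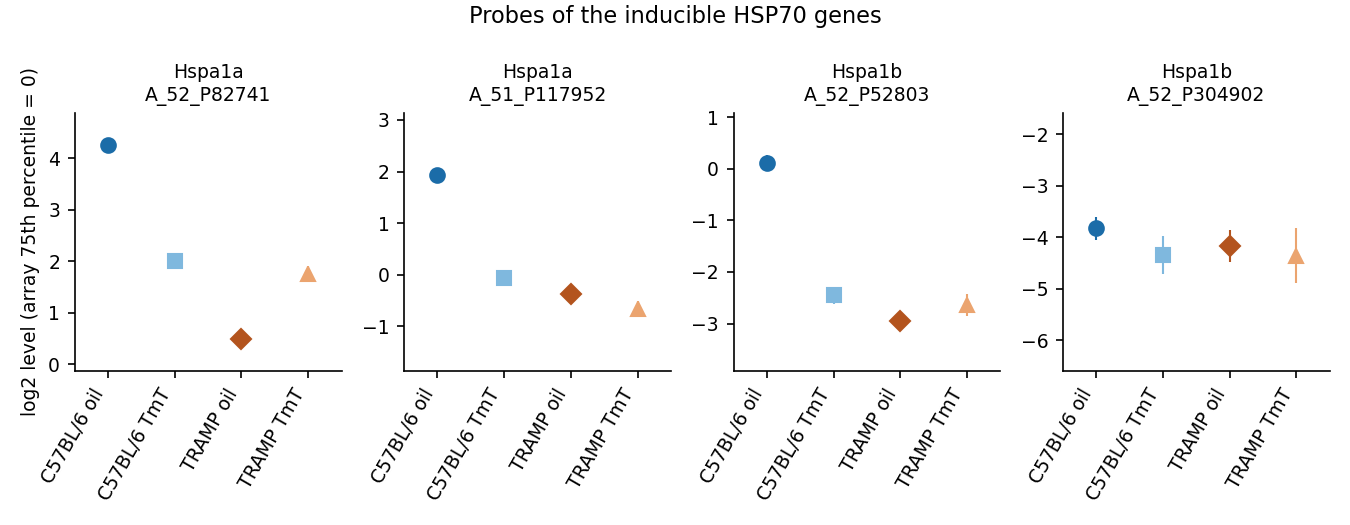
Log2 level (array 75th percentile = 0) of each probe of Hspa1a and Hspa1b on the 4 arrays, 1 array per group, with the scanner software's spot error as bars; the panels have equal spans but different positions on the vertical axis. The C57BL/6 oil array is the highest in all panels, and the 2 Hspa1a probes order the TRAMP arrays differently, 0.50 and 1.76 with one and -0.36 and -0.66 with the other.

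The co-chaperones differed from one another. Dnajb1, the HSP40 protein that hands substrates to HSP70 and speeds its ATP use, stood at 6.41 on the C57BL/6 oil array, 5.24 on C57BL/6 TmT, 5.21 on TRAMP oil and 4.92 on TRAMP TmT. The first array was above all others by at least 1.17, and the other arrays lay within 0.32. The second Dnajb1 probe kept the C57BL/6 oil array on top, at 0.36 against -1.12, -0.74 and -1.15.

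Bag3, a nucleotide exchange factor that links HSP70 to autophagy, had another order. It stood at 3.18 on the C57BL/6 oil array, 3.12 on C57BL/6 TmT, 2.17 on TRAMP oil and 3.18 on TRAMP TmT. One array was low, that of TRAMP oil, and the other arrays were within 0.06 of each other. The second Bag3 probe read 0.88, 0.17, 0.08 and 0.95 in the same order, so there the C57BL/6 TmT array was low as well. For TmT in C57BL/6 the Bag3 probes gave -0.06 ± 0.20 and -0.71 ± 0.20.

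Hspb1 stood at 3.24 in C57BL/6 after oil, 2.32 in C57BL/6 after TmT, 2.09 in TRAMP after oil and 2.09 in TRAMP after TmT. It was highest on the C57BL/6 oil array, by 0.92, and the rest lay within 0.23. Hsp90aa1, the stress-inducible HSP90 of the cytosol, split by treatment instead. It stood at 4.26 and 4.01 on the oil arrays of C57BL/6 and TRAMP and at 3.46 and 3.31 on the TmT arrays. Both oil arrays were above both TmT arrays, with a gap of 0.54 between the lower oil array and the higher TmT array.

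The mitochondrial pair did not vary alike, although the genes share a promoter region. Hspd1 stood at 5.39 in C57BL/6 after oil, 5.15 in C57BL/6 after TmT, 5.55 in TRAMP after oil and 4.59 in TRAMP after TmT. Its TRAMP TmT array was the low one, by 0.55 from the next. Its second probe had the same low array, at 1.14 against 2.61, 1.96 and 2.40.
Hspe1 stood at 4.96, 4.67, 4.82 and 4.74 in the same order, and none of its neighbours in rank differed by more than the spot error. For TmT in TRAMP mice Hspd1 was at -0.96 ± 0.20 and -1.26 ± 0.20 with its 2 probes and Hspe1 at -0.08 ± 0.20.

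The HSP70 family members that are made constitutively were nearly level. Hspa8 (HSC70), the main cytosolic HSP70 of unstressed cells, stood at 5.26 in C57BL/6 after oil, 4.98 in C57BL/6 after TmT, 5.27 in TRAMP after oil and 5.38 in TRAMP after TmT. Hspa4, an HSP110-type exchange factor, stood at 4.35, 4.06, 4.07 and 4.11. No array of Hspa8 stood apart from the next by more than 0.29, and for Hspa4 the C57BL/6 oil array was 0.23 ± 0.20 above arrays that lay within 0.06 of each other. The range was 0.41 for Hspa8, 0.29 for Hspa4 and 0.29 for Hspe1, smaller than in most genes: 11.7%, 4.68% and 4.63% of genes had a smaller range. The second Hspa8 probe read 5.30, 4.80, 5.33 and 4.88, with both TmT arrays below both oil arrays, so the probes differ in sign for TmT in TRAMP (0.11 ± 0.20 and -0.45 ± 0.20). The 3 probes of Hspa4 gave 0.05, -0.40 and 0.23 there.

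**Figure D2:**
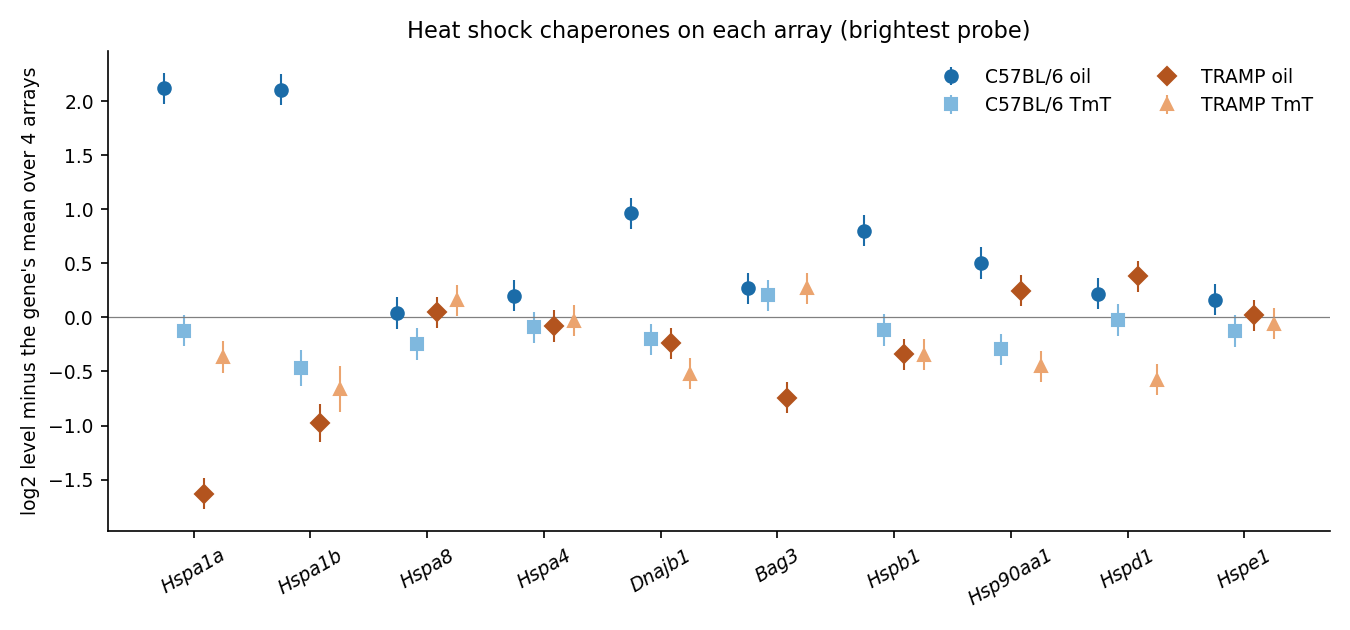
Level of each member on each of the 4 arrays as log2 difference from the gene's own mean over the arrays, brightest probe, with the scanner software's spot error as bars (n = 1 array per group). Hspa1a, Hspa1b, Dnajb1 and Hspb1 have the C57BL/6 oil array well above the rest, while Hspa8, Hspa4 and Hspe1 stay within 0.41 over all arrays.

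Over the 10 members, 7 were highest on the C57BL/6 oil array, against 23.3% of all 16961 genes above background on the 4 arrays, and none was lowest there. In 3 of the 10 members (Hspa1a, Hspa1b and Dnajb1) that array was at least 2-fold above each other array, which was so in 0.254% of all genes. These counts of members and those below are descriptions only. Hspa1a and Hspa1b are not independent readings, and the members were chosen with earlier results of these data known. The remaining orders were Bag3 and Hspa8 highest on TRAMP TmT and Hspd1 highest on TRAMP oil. The C57BL/6 oil array serves both the TmT comparison in C57BL/6 and the comparison of the lines after oil, so the results of these 2 comparisons share an array and are given side by side only.

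The first comparison asked what TmT did in C57BL/6 mice. All 10 members were below 0 (TmT minus oil), where 48% of 18665 genes were, and 3 of 10 were at least 2-fold lower, against 2.63% of genes. None was at least 2-fold higher, against 3.12%, and 5.74% of genes differed at least 2-fold either way. The 3 genes were Hspa1b at -2.57 ± 0.22, Hspa1a at -2.24 ± 0.20 and Dnajb1 at -1.17 ± 0.20. Hspa1b had the lowest difference of all 18665 genes, Hspa1a was the 8th lowest and Dnajb1 the 288th lowest. Hspa1b was at -1.54 with the mean over its probes, 1 of them dim. It was at -1.18 with another background correction (normexp), which also added 50 to each signal. Hspa1a kept to between -2.27 and -2.12 under the alternatives run. Next came Hspb1 at -0.92 ± 0.20 and Hsp90aa1 at -0.80 ± 0.20. The other 5 members ran from -0.29 to -0.06. The median of the members was -0.54, or -0.29 without Hspa1a and Hspa1b, and that of all genes was 0.02.

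In TRAMP mice the same treatment comparison gave another picture. Of the members 5 were below 0 and 5 above, with a median of 0.02, whose sign varied with the processing (-0.32 to 0.02), against 0.10 for all genes. At least 2-fold higher were Hspa1a at 1.26 ± 0.20, with the probe disagreement given above, and Bag3 at 1.01 ± 0.20, that is 2 of 10 against 8.66% of 17465 genes. Hspd1 had the lowest value, -0.96, so that none was at least 2-fold lower, against 4.86% of genes. Both Bag3 and Hspd1 lay near the threshold, and their calls turned with the processing. Bag3 was under 2-fold with normexp (0.51), median scaling (0.92), no detrending (0.85) and the mean over probes (0.94). Hspd1 was at least 2-fold lower with these settings and with quantile scaling, at -1.05 to -1.46. In the main setting Hspd1 was followed by Hsp90aa1 at -0.70 ± 0.20. Hsp90aa1 was the member with the most similar difference in both lines, -0.80 and -0.70 with the 1 probe it has, and -0.83 and -0.45 without detrending.

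**Figure D3:**
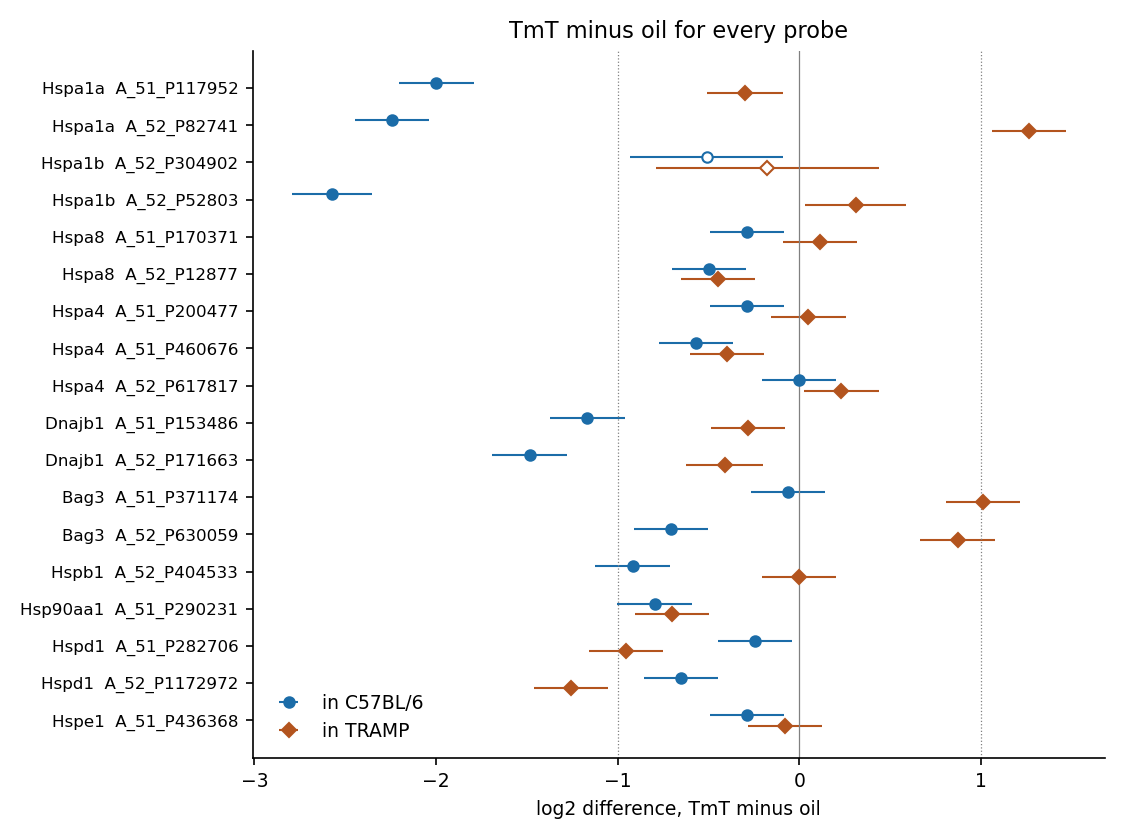
Log2 difference TmT minus oil for each of the 18 probes in C57BL/6 (circles) and in TRAMP (diamonds), with the propagated spot error as bars; open symbols are probes not well above background on both arrays, and dotted lines mark 2-fold. In C57BL/6 all probes lie at or below 0, whereas in TRAMP they run from -1.26 for an Hspd1 probe to 1.26 for an Hspa1a probe.

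The lines were compared after oil and, on the other pair of arrays, after TmT. After oil, 8 of 10 members were lower in TRAMP, where 54.5% of 18921 genes were, and 5 of 10 were at least 2-fold lower, against 7.84% of genes. These were Hspa1a at -3.75 ± 0.20, Hspa1b at -3.08 ± 0.23, Dnajb1 at -1.20 ± 0.20, Hspb1 at -1.14 ± 0.20 and Bag3 at -1.01 ± 0.20. Hspa1a was the 19th lowest and Hspa1b the 33rd lowest of the 18921 genes. Hspa1b was at -1.71 with the mean over probes and -1.44 with normexp. Bag3 was under 2-fold with normexp, quantile or median scaling, no detrending and the mean over probes, at -0.95 to -0.91. No member was at least 2-fold higher, against 7.74% of genes (15.6% differed either way), and the median was -0.65 against -0.07 for all genes. After TmT, none of the members was 2-fold different, against 14.5% of 17251 genes (6.09% lower and 8.45% higher). The values then ran from -0.55 for Hspd1 to 0.41 for Hspa8, and 6 of 10 were below 0 against 49.4% of genes. Hspa1a was at -0.24 ± 0.20 and Hspa1b at -0.20 ± 0.27 in that comparison, which does not use the C57BL/6 oil array.

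**Figure D4:**
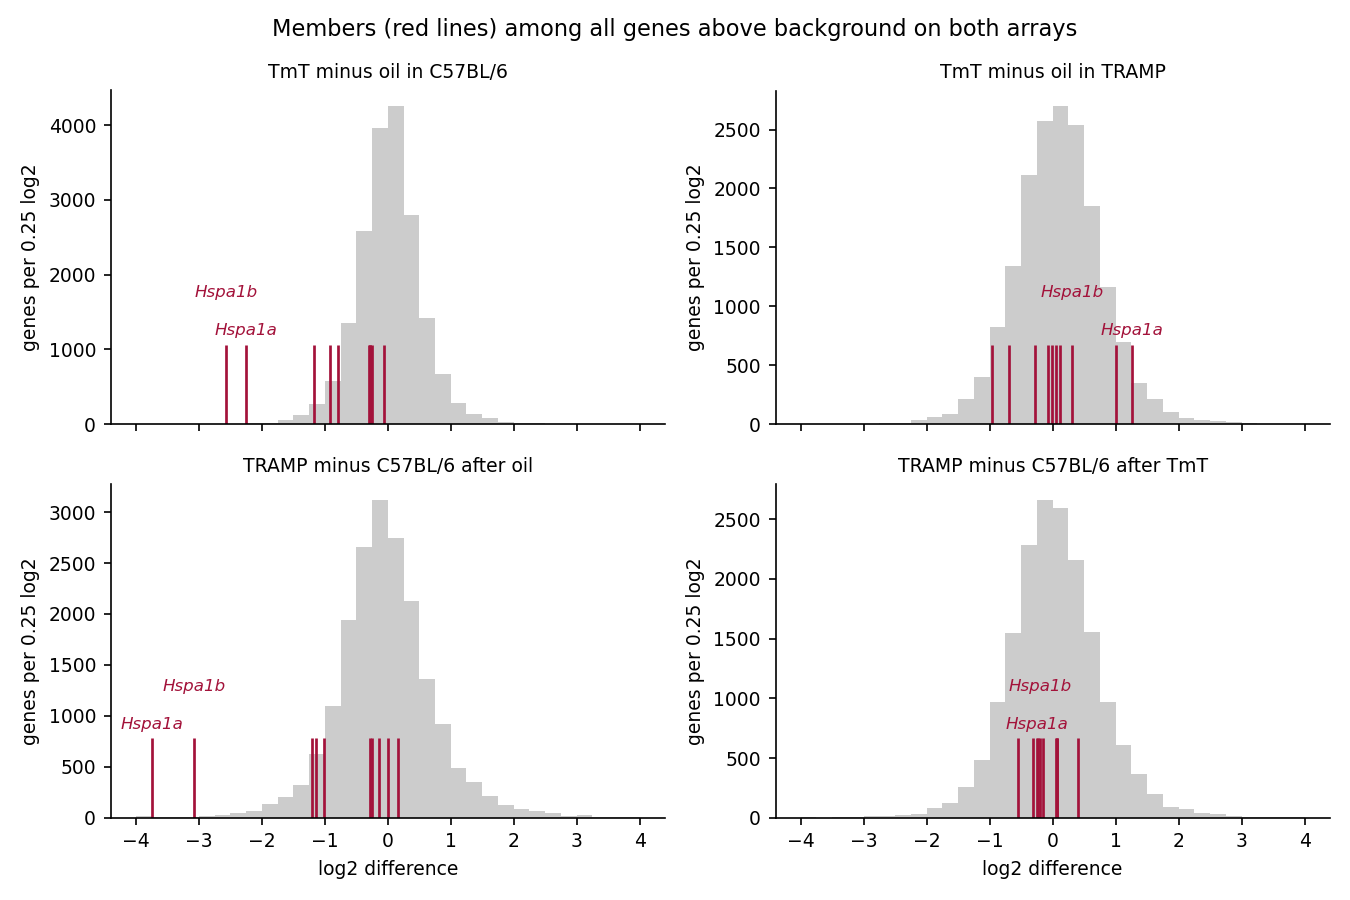
Histograms of the log2 difference of all genes above background on both arrays (values beyond 4 drawn in the end bins), with the 10 members as red lines, for the 4 comparisons of 1 array with 1 array. Hspa1a and Hspa1b lie at the lower edge in the 2 comparisons that use the C57BL/6 oil array, at -2.24 and -2.57 and at -3.75 and -3.08, and inside the bulk in TRAMP against C57BL/6 after TmT.

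A joint fit of line and treatment over the 4 arrays, with limma, called no member. The lowest adjusted p among the members was 0.34 for the line (Hspa1a, fitted difference -2.00 ± 0.82 SE) and 0.778 for TmT. For TmT the fitted difference was -0.75 ± 0.32 for Hsp90aa1 and -0.72 ± 0.37 for Dnajb1. At an unadjusted p under 0.05 in that fit there were 0 members for either term, against 3008 of 19925 genes for the line and 1248 for TmT. Of 19925 genes, limma called 20 higher (0.1%) and 7 lower (0.0351%) in TRAMP and 0 for TmT. This fit has 1 residual degree of freedom, which is the difference between the treatment effects of the lines, so a gene such as Hspa1a, for which that difference is large, has a large error.

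The other genes of the chaperone network were counted by family. Their regulators are HSF1 and HSF2. Hsf1 was at 3.20, 3.62, 3.72 and 3.55 in C57BL/6 after oil and TmT and in TRAMP after oil and TmT, lowest on the array where Hspa1a was highest. Hsf2 was at -1.47, -1.88, -0.58 and -1.02, higher on the TRAMP arrays, and Hsf4 was not well above background on any array.

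Outside the members and the endoplasmic reticulum list given below, 66 genes of 7 families of chaperones, co-chaperones and mitochondrial proteases were above background in C57BL/6 after oil and TmT. The families were sorted by protein type, so they also hold genes of the endoplasmic reticulum, such as Dnajb11, Dnajc3 and Hspa13. For TmT in C57BL/6, 44 of the 66 were below 0, against 48% of all genes, with a median of -0.15. At least 2-fold lower was 1 and higher were 0 of the 66, against 2.63% and 3.12% of all genes. That gene was Dnaja4, an HSP40 protein, at 1.78 after oil and 0.23 after TmT, and it stood at 0.20 and -0.94 in TRAMP after oil and TmT. Hsph1 (HSP110) came close, at 4.25 and 3.26 in C57BL/6 and at 2.77 and 3.25 in TRAMP. Like Hspa1a, Dnaja4 and Hsph1 had the C57BL/6 oil array highest. Hsph1 had the TRAMP oil array lowest, as did the first Hspa1a probe but not the second.

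For TRAMP against C57BL/6 after oil, 45 of 65 were below 0, against 54.5% of all genes, with a median of -0.17. At least 2-fold lower were 7 and higher was 1 of the 65, against 7.84% and 7.74% of all genes, so the lower count is near the background. Lower were Bag6 at -1.73, the small heat shock proteins Cryab at -1.67 and Hspb7 at -1.54, the HSP40 genes Dnaja4 at -1.58, Dnajb11 at -1.52 and Dnajc3 at -1.13, and Hsph1 at -1.48. Fkbp5, an HSP90 co-chaperone induced by steroid receptors, was higher at 1.84. After TmT, 47 of 66 were below 0, against 49.4% of all genes, with a median of -0.29. At least 2-fold lower were 6 and higher were 3 of the 66, against 6.09% and 8.45% of all genes.

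For TmT in TRAMP, 40 of 65 were below 0, against 44.1% of all genes, with a median of -0.24. At least 2-fold lower were 5 and higher were 2 of the 65, against 4.86% and 8.66% of all genes. Lower were Hspa13 at -1.40, the chaperonin subunit Tcp1 at -1.38, Chordc1 at -1.33, Dnaja4 at -1.13 and Dnaja2 at -1.05. Higher were Bag6 at 1.95 and Grpel2, a mitochondrial exchange factor, at 1.51. The cytosolic chaperonin (CCT), which folds actin and tubulin, had 7 of 8 measured subunits below 0 for TmT in each line. Of all genes, 48% were below 0 in C57BL/6 and 44.1% in TRAMP. The CCT median was -0.15 in C57BL/6, within the spot error of 0.20 of a single gene, and -0.37 in TRAMP.

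The chaperones of the endoplasmic reticulum, which answer to another stress pathway, had all 11 measured genes below 0 for TmT in C57BL/6. Of all genes 48% were, and the median of the list was -0.54. None was at least 2-fold lower, against 2.63% of all genes. For TmT in TRAMP 3 of 9 were below 0, against 44.1%, with a median of 0.44. Hyou1 at 1.96 and Serpinh1 at 1.19 were at least 2-fold higher, against 8.66% of all genes. Manf at -1.01 was at least 2-fold lower, against 4.86% of all genes. After oil, all 9 with a value were lower in TRAMP, against 54.5% of all genes, with a median of -0.55. Pdia4 at -1.99 and Hyou1 at -1.89 were at least 2-fold lower, which was so in 7.84% of all genes. After TmT, 7 of 11 were lower in TRAMP, against 49.4% of all genes, with a median of -0.47. At least 2-fold lower were the luminal HSP70 Hspa5 at -3.43 and Manf at -1.01, and Serpinh1 was higher at 1.29. Of all genes, 6.09% were at least 2-fold lower and 8.45% higher. The spot of Hspa5 on the TRAMP oil array carried an outlier mark, so it has no value there. The immediate-early genes, which rise quickly after handling or stress of a tissue, had 11 of 14 below 0 in TRAMP against C57BL/6 after oil (54.5% of all genes), with a median of -0.39, led by Ier3 at -2.35 and Dusp1 at -1.72. They had 6 of 14 below 0 for the lines after TmT (49.4% of all genes), 9 of 14 for TmT in C57BL/6 (48%) and 3 of 14 for TmT in TRAMP (44.1%), with medians of 0.14, -0.08 and 0.38. Ier3 was also lower for TmT in C57BL/6, at -1.14, and higher for TmT in TRAMP, at 1.36, the directions of the first Hspa1a probe.

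**Figure D5:**
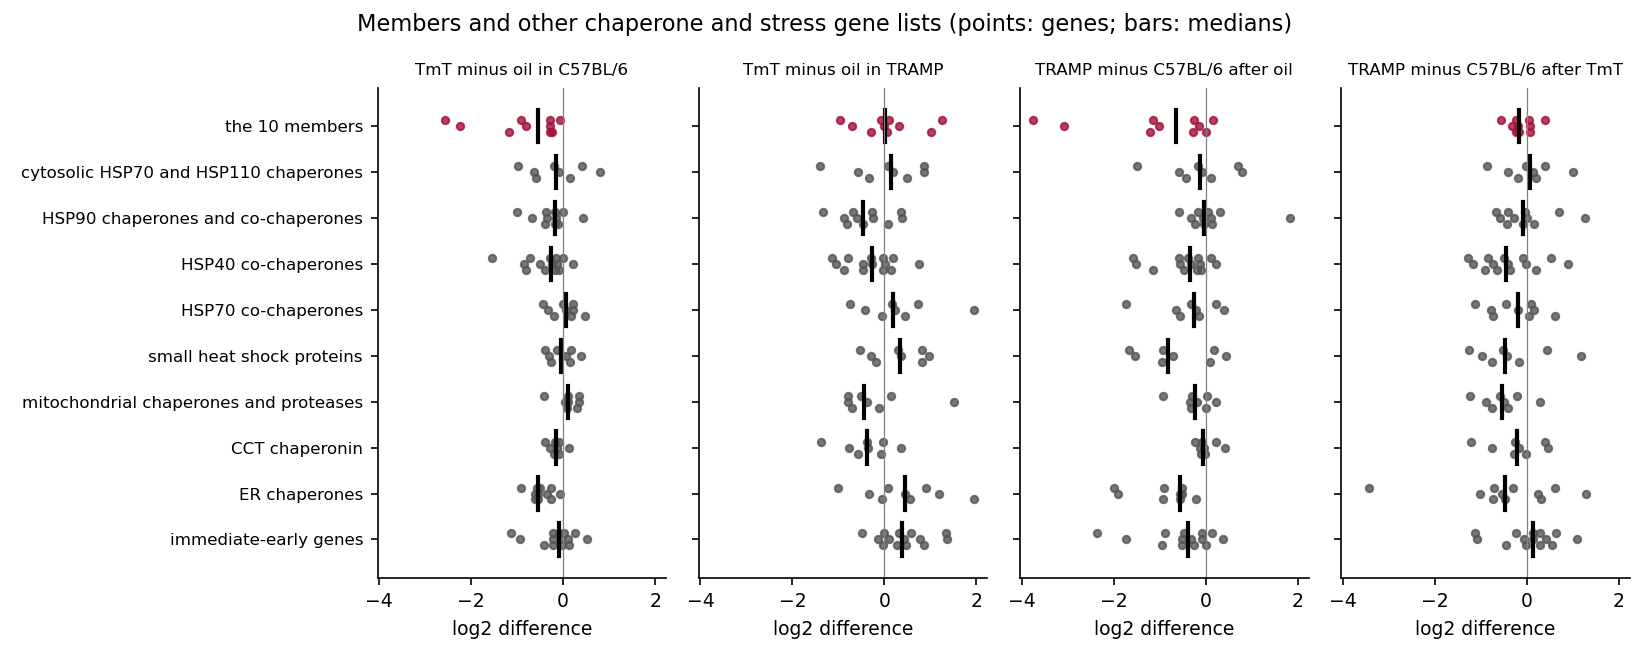
Log2 differences of the 10 members (red) and of the genes of 9 other lists (grey) in the 4 comparisons; each point is a gene above background on both arrays and each black bar a list's median. The lowest points in the C57BL/6 treatment panel are Hspa1b and Hspa1a, at -2.57 and -2.24, and the 7 lists between cytosolic HSP70 and CCT have medians from -0.26 to 0.11 there.

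Markers of other cells in the tissue also differed between the arrays. All markers of red cells (3 of 3), leukocytes (5 of 5), skeletal muscle (4 of 4), adipocytes (4 of 4), smooth muscle (4 of 4), fibroblasts (4 of 4) and endothelium (4 of 4) were above background on all arrays. The summed linear level of the red cell markers was 51.2 in C57BL/6 after oil and 24.9, 23.3 and 20.8 on the C57BL/6 TmT, TRAMP oil and TRAMP TmT arrays. The sum was highest on the array where the inducible chaperones were highest, as were both globin genes but not Alas2, an enzyme of haem synthesis. Hbb-b1 stood at 5.13 there against 3.97, 3.57 and 3.74, and Alas2 at 0.79 against 0.96, 0.27 and 0.87. The leukocyte sum was 12.1 there against 9.45, 8.50 and 7.54, and 3 of its 5 markers were highest on that array.
On the TRAMP oil array the adipocyte sum was 214 against 18.3 to 38.8 elsewhere. Bag3 and the brightest Hspa1a probe were lowest on that array, but the second Hspa1a probe was not. On the same array the skeletal muscle sum was lowest, at 111 against 161 to 225, as were those of smooth muscle, at 106 against 160 to 206, and of fibroblasts, at 36.8 against 72.6 to 89.3. Endothelial markers summed to 2.17 there and to 3.52 to 4.04 on the other arrays, and 2 of the 4 were lowest there, against 4 of 4 for smooth muscle and fibroblasts and 3 of 4 for skeletal muscle. The part of any of these cells in the levels of the members was not tested.

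Profiles over the 4 arrays were compared with those of the brightest Hspa1a and Dnajb1 probes, among 16951 genes. The second Hspa1a probe, which orders the TRAMP arrays differently, was not used. Nearest to Hspa1a was Cpa3, a protease of mast cells, at a root mean square distance of 0.33. Next came Csrp3, a striated muscle protein, at 0.44, 1700061J05Rik at 0.47, Ly96 at 0.52 and Cldn2 at 0.52. Cpa3 stood at -0.24, -1.64, -3.23 and -2.15 in C57BL/6 after oil and TmT and TRAMP after oil and TmT. Nearest to Dnajb1 were Pkib at 0.05, Gng10 at 0.07, NAP115318-1 at 0.09, Hdc, which makes histamine, at 0.10 and Clec4a3 at 0.10. Hdc stood at -1.64, -2.61, -2.74 and -3.17, highest on the C57BL/6 oil array like Dnajb1. With 4 arrays such a distance is a description of these arrays only.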

How the data were processed

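The scanner files hold linear intensity values per spot, background-subtracted and detrended by Agilent Feature Extraction 10.2.1.3, per the file headers, with probe positions on mm9. The deposited value table held the same intensity values for all 45018 features of each array (within a relative tolerance of 0.0001), so it is linear and not centred, with medians of 30.2, 21.3, 25.3 and 13.8 for C57BL/6 oil, C57BL/6 TmT, TRAMP oil and TRAMP TmT. The headers name multiplicative detrending, which left the TRAMP TmT array unchanged. From the deposited intensities, control spots and outlier spots were left out (131 to 348 per array), log2 was taken and the log2 of each array's 75th percentile was subtracted. Spots of a probe were averaged, and a gene took its brightest probe. A gene counted as measured when well above background on both arrays of a comparison, and 2-fold was the threshold, since a comparison of 1 array with 1 array allows no test. The test that the 4 arrays allow together is an additive fit with 1 residual degree of freedom. limma 3.58.1 in R 4.3.3 fitted line and treatment together over 19925 genes above background on at least 2 arrays, with Benjamini-Hochberg adjustment at 0.05, and was tested on simulated data. Other steps used Python 3.11.15 with numpy 2.4.6 and pandas 2.3.3. Accessions of 24836 of 41174 probes matched the RefSeq table (GRCm38.p6), which gave symbols and promoters and no probe coordinates.

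The members and the gene lists were chosen with earlier results of these data known. All members and probes are named, as are Hsf1 and Hsf2. Of each other list and comparison, at most the 3 highest and 3 lowest genes past 2-fold could be named, and Hsph1 under TmT in C57BL/6, Hsf4 and the markers given are named beside that rule. The 5 nearest profiles to Hspa1a and to Dnajb1 were taken by root mean square distance of centred levels. Alternatives were another background correction (normexp, with 50 added to each signal), quantile and median scaling, no multiplicative detrending and no filter on dim probes. Others were the mean over probes, outlier spots kept, the deposited table, members without Hspa1a and Hspa1b, and a 3-fold threshold. The number of arrays limits the precision.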

Additional observations from a re-analysis of the deposited data

Results flagged for a closer look

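For 5 members the difference TmT minus oil had opposite signs in the lines, and with 1 array per group the difference was not tested. The share of all genes with opposite signs was not counted, so the count of members is a description only. Of all genes, 48% were below 0 for TmT in C57BL/6 and 44.1% for TmT in TRAMP. TmT minus oil in TRAMP minus the same in C57BL/6 came to 3.51 for Hspa1a, 2.88 for Hspa1b and 1.08 for Bag3. For Hspa1a the sign in TRAMP holds for 1 of its 2 probes, and for Hspa1b the value in TRAMP, 0.31 ± 0.28, was close to its spot error. It came to 0.40 for Hspa8 and 0.34 for Hspa4, where the values in TRAMP, 0.11 and 0.05, were within the spot error of 0.20.

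For 4 members TRAMP minus C57BL/6 had opposite signs after oil and after TmT, and the difference was not tested. Here too the share of all genes with opposite signs was not counted, so the count is a description only. Of all genes, 54.5% were below 0 after oil and 49.4% after TmT. After TmT minus after oil, the difference came to -0.71 for Hspd1, 0.21 for Hspe1, 1.08 for Bag3 and 0.34 for Hspa4. For Bag3 and Hspa4 this is the same number as above, since both contrasts use the same 4 arrays. The Hspe1 values themselves, those of Bag3 and Hspa4 after TmT and that of Hspd1 after oil were within the spot error. Hspd1 after oil was at 0.16 ± 0.20 with its brightest probe and at -0.21 ± 0.20 with the second, so its change of sign rests on the probe. The second Bag3 probe was at 0.78 ± 0.20 after TmT.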

How the results depend on the processing

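No paired analysis was possible because each group has 1 array and the labels give no replicate numbers. The planned background correction by normexp could not be fitted on the TmT arrays, which held spots of extreme local background, so it was run without them, an alternative chosen after seeing the data. With it the median for TmT in TRAMP was -0.32, and the fit called 3 members for line and 2 for TmT, and 1369 genes for line and 348 for TmT, where the fitted prior gave all genes 1 variance. It moved the median of all genes for the lines after oil from -0.07 to 0.05. Without Hspa1a and Hspa1b the median was -0.29 and the count of 2-fold members 1 for TmT in C57BL/6, the count 1 for TmT in TRAMP, and the median -0.27 and the count 3 for the lines after oil. At 3-fold the counts were 0 for TmT in TRAMP and 2 for the lines after oil. The mean over probes gave a count of 1 for TmT in TRAMP, with Hspa1a at 0.48 there and -3.02 for the lines after oil. Quantile scaling and leaving out detrending each gave a count of 3 for the lines after oil, with Dnajb1 at -0.97 and -0.96 and Bag3 under 2-fold too. Normexp, median scaling and the mean over probes each gave 4, without Bag3. For TmT in TRAMP, 1 member lower and 1 higher came from normexp, median scaling and no detrending, against 0 and 2, as Hspd1 passed the threshold and Bag3 did not. Genes called for line numbered 0 to 95 over the planned settings, against 27. The cause of these shifts was not tested, beyond the fewer members and the higher threshold. Normexp also added an offset of 50 to each signal, and the part of this offset in its shifts was not tested. Before scaling, the deposited signal of the brighter Hspa1b probe ran from 11.4 to 175, and the 75th percentile of an array from 71.3 to 161. Of 92 alternative values of medians and counts, 79 stayed within the spot error or within 1.5 times, and of 320 values of single members 286 did. Outlier spots kept, no filter on dim probes and the deposited table could not move a value of a single member. No member spot carried an outlier mark, and all 10 members were above background on all arrays. Each of these settings kept its 40 values, whereas normexp moved 18 of 40. For TmT in C57BL/6 all 10 members lay below 0 under each setting, whereas for TmT in TRAMP Hspa8 ran from -0.38 to 0.11, Hspa4 from -0.15 to 0.17 and the median of the members from -0.32 to 0.02. The deposited table gave the same values, since it holds the same intensities. Signal limits the dim Hspa1b probe, which was not well above background on either TmT array.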
